A study of Rattus norvegicus with 24 samples.

Results

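The G1 cell cycle machinery was followed in cultured neonatal rat ventricular myocytes through 10 listed genes: the D-type cyclins Ccnd1, Ccnd2 and Ccnd3, their kinases Cdk4 and Cdk6, the E-type cyclins Ccne1 and Ccne2, the pocket proteins Rb1 and Rbl1, and the transcription factor E2f1. The genes were chosen by name, and 9 of the 10 were analysed out of 21767 gene symbols; E2f1 was not analysed here. PolyA RNA came from 24 libraries of Sprague-Dawley cells, 3 in each of 8 groups. Cells were transfected (Lipofectamine RNAiMax) with mimics of miR-222-3p, of miR-455-3p or of both, or with a negative control mimic, at 5 nM each. Treatment with doxorubicin, an anthracycline that poisons topoisomerase II and breaks DNA, or with its control began 48 h later and lasted 24 h; groups without doxorubicin are called untreated below. Every group, the controls included, was thus transfected with a small RNA and grown in serum. Doxorubicin was at 4 uM according to the sample protocol; the series text has another unit, and the difference was not settled here. The labels give neither the animals nor the cultures behind the replicates, so a p-value sets an effect against the spread among these samples alone, which may be technical.

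D-type cyclins bind CDK4 and CDK6 in G1, and these complexes phosphorylate the retinoblastoma protein RB and its relatives p107 (Rbl1) and p130 (Rbl2). Phosphorylated pocket proteins release E2F factors, which drive the genes of DNA replication and Ccne1, Ccne2 and Rbl1 themselves; cyclin E with CDK2 then carries cells into S phase. Ventricular myocytes leave the cell cycle soon after birth in rodents, while fibroblasts in the same cultures go on dividing.

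The 2 mimics stand for mature miRNAs with different seeds, the bases by which a miRNA finds its targets, and are shown because the comparisons turn on which of them the cells received. The capitals mark bases 2 to 8, the seed, in the RefSeq sequences of the rat miRNAs (build GRCr8; miR-222-3p at chrX:6022682-6022702 on the plus strand, miR-455-3p at chr5:81704881-81704902 on the plus strand).
rno-miR-222-3p: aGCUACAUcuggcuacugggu
rno-miR-455-3p: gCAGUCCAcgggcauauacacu

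Libraries held 17311949 to 25750309 counts and 11469 to 13524 genes with at least 10 counts. The 4 with fewest genes, called gene-poor below, were doxorubicin control mimic replicate 1 (11469), doxorubicin both mimics replicate 2 (12289), untreated control mimic replicate 1 (12430) and untreated both mimics replicate 3 (12467); mitochondrial genes took 20.3% to 38.2% of their counts, against 5.54% to 20.2% in the others. Some libraries of 1 group were also unusually close to each other: a chi-square of their counts divided by its degrees of freedom was 5.79 to 9.79 for 6 pairs in 4 groups (untreated miR-222 replicates 1 and 2, untreated miR-455 replicates 1 and 3, untreated both mimics replicates 1 and 2, and all 3 doxorubicin miR-455 libraries), and at least 51.4 for every other pair. These pairs differed by more than sampling noise, which does not show that they came from separate cultures. They were kept as separate samples, so the spread in those groups may be too small. Results without the 4 gene-poor libraries, or with the close ones summed, are given with the genes below. Of the cardiomyocyte markers Tnnt2, Myh6, Actc1, Ryr2 and Actn2 were high in every library, with a median of 316.8 CPM or more, whereas the transcription factor Nkx2-5 was at 0 in 1 library and its median was 5.00 CPM. Fibroblast markers were abundant too (summed CPM 13670 to 50450), and the leukocyte and endothelial genes Ptprc, C1qa and Cdh5 were at or below 0.773 CPM in every library. Other markers of those lists were present: the endothelial receptors Kdr and Tek had medians of 10.2 and 16.3 CPM and the monocyte gene Cd14 7.13 CPM, and the summed lists ran from 11.5 to 66.6 CPM (endothelial) and from 3.44 to 17.9 CPM (leukocyte). In all 4 doxorubicin comparisons Kdr was lower (-2.41 to -4.66) and Cd14 higher (1.57 to 2.13), and Kdr was also lower with each mimic under doxorubicin (-2.72 to -3.17). No other tested gene of these lists was called for doxorubicin. Tek changed by 0.31 to 1.45 there, Cd68 by 0.64 to 1.03 and Csf1r by -0.18 to -2.03. Vwf was higher with miR-222 in untreated cells (2.77, edgeR adjusted p 0.0253). In such bulk RNA, fewer cells of a type and less RNA per cell cannot be told apart.

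Across the groups, Ccnd1 moved most often. It was higher with doxorubicin whichever mimic the cells had received, and lower with miR-222 or with both mimics whether or not doxorubicin was given. Summing the close libraries ended its doxorubicin calls with miR-222 and with both mimics, and left doxorubicin miR-455 with 1 sample. It also ended the lower Ccnd1 calls for miR-222 in both treatments and for both mimics in untreated cells. Ccne2 and Rbl1 were lower with doxorubicin in the control mimic cells and with 1 mimic each in untreated cells, Ccnd2 was higher with doxorubicin in 2 mimic conditions and lower with miR-222 or both mimics under it, and Cdk6 was lower in 1 comparison. Ccnd3, Cdk4, Ccne1 and Rb1 passed the test in none of the comparisons.

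These calls were read against the share of all 14303 tested genes called in the same direction (edgeR quasi-likelihood test, Benjamini-Hochberg adjusted p under 0.05). Doxorubicin with the control mimic called 2 of the 9 genes higher and 2 lower, where 15.2% of all genes were called higher and 12.3% lower. With miR-222 it called 1 higher and 0 lower (7.76% and 6.87% of all genes), with miR-455 2 higher and 0 lower (9.02% and 9.11%), and with both mimics 1 higher and 0 lower (7.85% and 7.24%). Among untreated cells, miR-222 called 0 higher and 2 lower (4.5% and 4.47%), miR-455 0 higher and 1 lower (2.47% and 2.25%), and both mimics 0 higher and 2 lower (3.67% and 3.39%). Under doxorubicin, miR-222 called 0 higher and 2 lower (1.59% and 2.36%), miR-455 called 0 in either direction (0.657% and 1.85%), and both mimics called 0 higher and 2 lower (2.78% and 2.78%). With 9 genes, 1 gene is a large share, so these counts say nothing particular about the machinery as a set. The same shares apply to the counts of other lists and of markers below, where all libraries were used. For miR-455 under doxorubicin, 1 of the 9 had an unadjusted p under 0.05 in edgeR, and DESeq2 called 1, Ccnd2.

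Comparisons within a treatment share their control mimic group, and the untreated and doxorubicin comparisons share groups as well, so they are given side by side and not as independent of each other. Counts are not corrected for transcript length, so CPM values (counts scaled to a common library size) are compared only within a gene. Changes below are log2 fold changes ± SE from the fit of all 24 libraries.

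**Figure D1:**
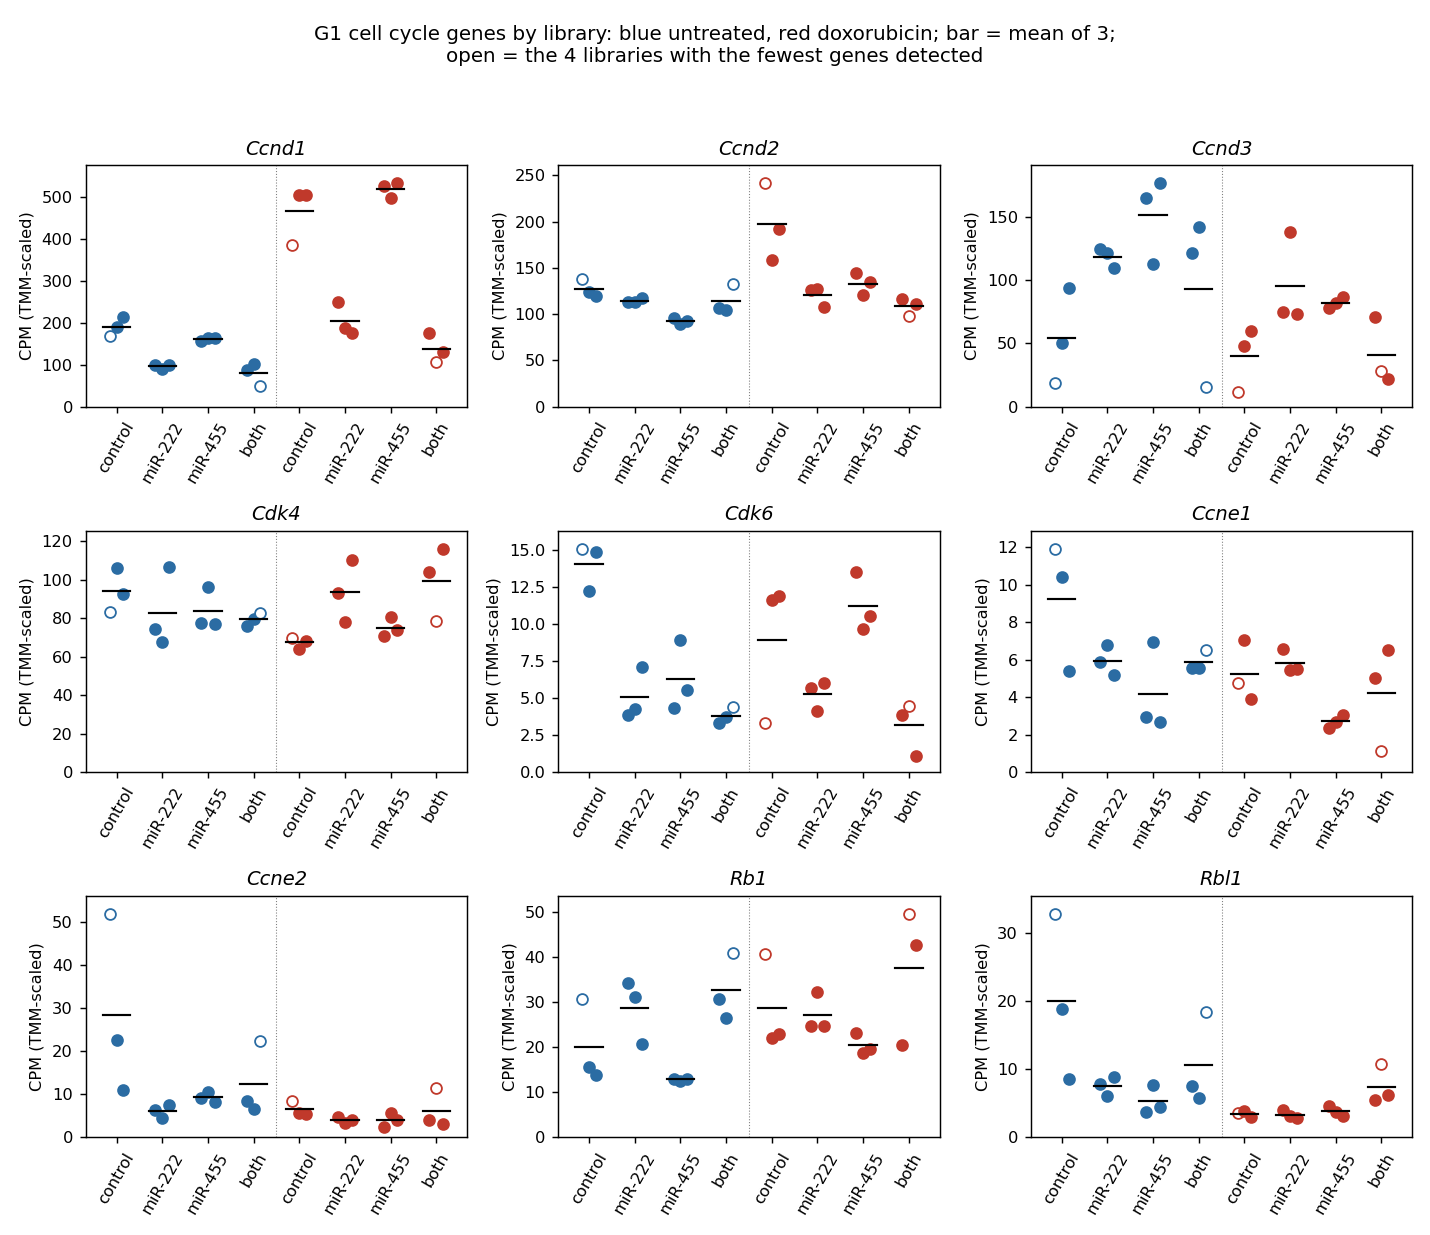
CPM of each of the 9 G1 genes (vertical axis, linear from 0) in the 8 groups (horizontal axis); points are libraries, 3 per group (blue untreated, red doxorubicin, open for the 4 gene-poor libraries), and bars are group means. Ccnd1 lies at 386 to 505 CPM with doxorubicin and the control mimic, and at 50.2 to 101 CPM in untreated cells with both mimics.

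Ccnd1, the mitogen-responsive cyclin D1, had 169, 189.6 and 213 CPM in the 3 untreated control mimic libraries and 386, 505 and 505 CPM with doxorubicin. The groups did not overlap, and every doxorubicin library was above every untreated one. The change was 1.29 ± 0.23 (adjusted p 4.02e-04), and all 14 alternative settings kept the call. With miR-222, untreated libraries had 99.3, 89.6 and 99.0 CPM and doxorubicin libraries 250.4, 188 and 176 CPM. Those groups were again apart, at a lower level on both sides, and the change was 1.09 ± 0.23 (adjusted p 0.00316). With miR-455, the values were 156, 164 and 165 CPM untreated and 526, 497 and 532 CPM with doxorubicin. No library was shared between the 2 ranges, and the change was 1.68 ± 0.24 (adjusted p 6.09e-05). With both mimics, untreated libraries had 87.1, 101 and 50.2 CPM and doxorubicin libraries 176, 106 and 131 CPM. The 2 groups did not overlap, but 106 and 101 CPM nearly met, and the change was 0.79 ± 0.23 (adjusted p 0.0248).

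The doxorubicin call in cells with both mimics was the least stable of these. It was lost without doxorubicin replicate 1 (0.57, adjusted p 0.1201), without doxorubicin replicate 3 (0.82, adjusted p 0.05331), without untreated replicate 3 (0.56, adjusted p 0.07502) and when only the 2 groups were fitted (0.80, adjusted p 0.3132); without the 4 gene-poor libraries it stood at 0.69 (adjusted p 0.009196). With the close libraries summed, Ccnd1 was no longer called for doxorubicin with miR-222 (1.07, adjusted p 0.0751), with miR-455 (1.62, adjusted p 0.08665) or with both mimics (0.92, adjusted p 0.124).

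Against the control mimic, Ccnd1 fell with miR-222 in untreated cells: 89.6 to 99.3 CPM against 169 to 213 CPM, with no overlap. The change was -0.99 ± 0.23 (adjusted p 0.0128). With both mimics it fell by 1.26 ± 0.23 (adjusted p 0.0033), and untreated both mimics replicate 3 was the lowest of all 24 libraries at 50.2 CPM. With miR-455 the 3 libraries (156 to 165 CPM) all lay just below the controls, yet the difference did not pass the test (-0.24 ± 0.23, adjusted p 0.523). Under doxorubicin the level fell by 1.18 ± 0.23 with miR-222 (176 to 250.4 CPM against 386 to 505 CPM, adjusted p 0.00453) and by 1.76 ± 0.24 with both mimics (106 to 176 CPM, adjusted p 1.05e-04), while the miR-455 libraries (497 to 532 CPM) overlapped the control mimic libraries (0.16 ± 0.23, adjusted p 0.885). Doxorubicin libraries that received miR-222 or both mimics thus lay across the range of untreated control mimic cells.

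Of these 4 lower calls, the untreated miR-222 one was lost without miR-222 replicate 1 (-1.05, adjusted p 0.05214) or replicate 2 (-0.98, adjusted p 0.06486). All except the one for both mimics under doxorubicin were lost with the close libraries summed (untreated miR-222 -0.997, adjusted p 0.1895; untreated both mimics -1.41, adjusted p 0.0902; miR-222 under doxorubicin -1.15, adjusted p 0.05582), and all but untreated miR-222 when only the 2 groups were fitted (-1.29, -1.15 and -1.71, adjusted p 0.18, 0.09149 and 0.1194). All 4 kept their call without the 4 gene-poor libraries (adjusted p 3.939e-05 to 9.215e-04).

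The 2 single mimics were set against each other in comparisons added after the values had been seen. Under doxorubicin Ccnd1 was lower with miR-222 than with miR-455 by -1.34 ± 0.23 (adjusted p 0.00167), 1 of 511 genes (3.57%) called either way, and the groups did not overlap; with the 3 close miR-455 libraries summed to 1 the adjusted p was 0.4112. Among untreated cells the difference was -0.75 ± 0.23 and missed the threshold (adjusted p 0.107), and 0 of the 9 genes were called where 2.3% of all genes were. There 2 of the 9 had an unadjusted p under 0.05, and DESeq2 called 2: Ccnd1 (-0.74, adjusted p 0.03605) and Rb1 (1.17, adjusted p 0.02754). Both mimics together did not differ by the test from miR-222 alone. The Ccnd1 difference was -0.27 ± 0.23 untreated and -0.57 ± 0.23 under doxorubicin (adjusted p 1 and 0.418). None of the 9 genes was called there, and 0% and 0.161% of all genes were; 0 and 2 of the 9 had an unadjusted p under 0.05, and DESeq2 called 0 in each.

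Fibroblast markers moved in some of the same comparisons, and also with miR-455, where Ccnd1 was not called. Their summed CPM was 16670 to 28960 in untreated control mimic cells, 16430 to 17970 with miR-222, 24250 to 27730 with miR-455 and 13670 to 20200 with both mimics; under doxorubicin it was 21930 to 50450 with the control mimic, 24330 to 27190 with miR-222, 28210 to 29710 with miR-455 and 15370 to 26170 with both. Of the 6 fibroblast markers, 2 were called lower with miR-222 in each treatment: Thy1 (-2.57 ± 0.56 untreated and -2.40 ± 0.55 under doxorubicin) and the matrix proteoglycan Lum (-2.20 ± 0.53 and -2.07 ± 0.53). With miR-455, 2 were lower in untreated cells, Dcn (-1.07 ± 0.25) and Lum (-1.95 ± 0.53), and 1 under doxorubicin, Dcn (-1.23 ± 0.25). Both mimics lowered 3 of 6 in untreated cells and 1 of 6 under doxorubicin, Thy1 (-3.17 ± 0.57). With doxorubicin in control mimic cells, 1 fibroblast marker rose (Dcn, 0.74 ± 0.25) and 1 fell (Pdgfra, adjusted p 0.0214). In the 3 mimic conditions doxorubicin, which raised Ccnd1 there, called 0 of the 6 in edgeR, with 1, 1 and 2 at an unadjusted p under 0.05. None of the 6 was at 0 in any library. Of the 6 cardiomyocyte markers, Tnnt2 rose (0.92 to 1.34) and Nkx2-5 fell (-4.56 to -5.39) in all 4 doxorubicin comparisons. Of the smooth muscle and pericyte markers, the calponin Cnn1 rose with doxorubicin in control mimic (1.90 ± 0.33), miR-222 (1.48 ± 0.33) and both-mimic cells (1.32 ± 0.33). The receptor Pdgfrb was lower in untreated cells with miR-222 (-1.41 ± 0.39, adjusted p 0.0308) and with both mimics (-1.65 ± 0.40, adjusted p 0.0166), and rose with doxorubicin in those 2 mimic conditions (1.18 ± 0.39 and 1.27 ± 0.39). The actin Acta2 fell with doxorubicin in miR-455 cells (-2.18, adjusted p 0.03). The part of these markers in the changes of Ccnd1 and the other G1 genes was not tested.

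**Figure D2:**
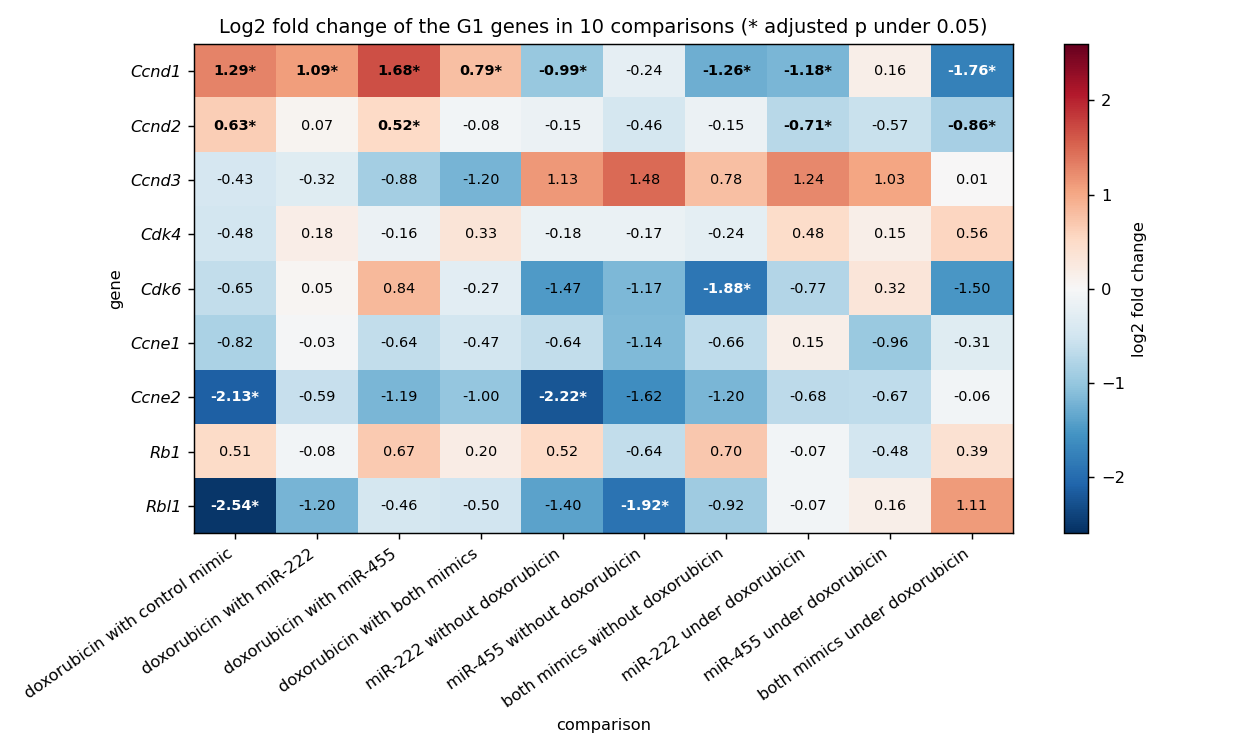
Log2 fold changes of the 9 G1 genes (rows) in the 10 comparisons of doxorubicin and of the mimics (columns), from the edgeR fit of all 24 libraries, printed in each cell and coloured red above 0 and blue below it; an asterisk marks an adjusted p under 0.05. Ccnd1 is positive and marked in the 4 doxorubicin columns and negative and marked in the miR-222 and both mimics columns.

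Ccnd2, the second D-type cyclin, had 138, 124 and 119 CPM in untreated control mimic cells and 241, 159 and 192 CPM with doxorubicin. The groups were apart, and the highest value was in doxorubicin replicate 1, the library poorest in genes. The change was 0.63 ± 0.17 (adjusted p 0.00816); without the 4 gene-poor libraries it was 0.45 (adjusted p 0.02371), with only the 2 groups fitted 0.61 (adjusted p 0.1584), and with the close libraries summed 0.57 (adjusted p 0.06648). In miR-455 cells Ccnd2 rose from 96.0, 89.0 and 92.4 CPM to 144, 120.3 and 135 CPM. That change of 0.52 ± 0.17 (adjusted p 0.0338) was lost when any 1 of the 6 libraries was left out (adjusted p 0.05062 to 0.1294), without the filter on low counts (adjusted p 0.06427) and with the close libraries summed (adjusted p 0.6618). In miR-222 cells the values were 113, 113 and 117 CPM untreated and 126, 127 and 108 CPM with doxorubicin, which overlapped (0.07 ± 0.17, adjusted p 0.843). With both mimics they were 106, 105 and 132 CPM and 117, 97.9 and 111 CPM (-0.08 ± 0.17, adjusted p 0.805).

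Under doxorubicin Ccnd2 was therefore lower with miR-222 than with the control mimic by -0.71 ± 0.17 (adjusted p 0.0175) and lower with both mimics by -0.86 ± 0.17 (adjusted p 0.00351), without overlap in either case. The miR-222 call was lost without doxorubicin control mimic replicate 1 (-0.54, adjusted p 0.1168) or without any 1 of the miR-222 libraries (adjusted p 0.05008, 0.05475 and 0.1232). It held without all 4 gene-poor libraries (-0.54, adjusted p 0.01708), as did the call for both mimics (-0.61, adjusted p 0.01301). Fitting only the 2 groups ended both calls (adjusted p 0.2471 and 0.3727), and so did summing the close libraries (adjusted p 0.1571 and 0.0537). With miR-455 under doxorubicin the difference was -0.57 ± 0.17 (adjusted p 0.0888). In untreated cells miR-455 gave a lower call once the 4 gene-poor libraries were left out (-0.43, adjusted p 0.04241).

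Ccnd3, cyclin D3, varied widely within several groups. Untreated control mimic libraries had 18.8, 50.3 and 93.4 CPM, and doxorubicin control mimic libraries 11.9, 48.3 and 60.02 CPM. Untreated libraries had 124, 121 and 109 CPM with miR-222, 165, 113 and 176 CPM with miR-455, and 121, 142 and 15.7 CPM with both mimics. With doxorubicin the values were 74.4, 138 and 72.8 CPM with miR-222, 77.8, 81.6 and 86.9 CPM with miR-455, and 71.1, 28.4 and 21.9 CPM with both. The 3 lowest values of all 24 libraries fell in 3 of the 4 gene-poor libraries. The changes ranged from -1.20 ± 0.65 (doxorubicin with both mimics, adjusted p 0.24) to 1.48 ± 0.66 (miR-455 untreated, adjusted p 0.164), and none passed. Without the 4 gene-poor libraries, Ccnd3 was called lower with doxorubicin in miR-455 cells (-0.93, adjusted p 0.03983) and in cells with both mimics (-1.52, adjusted p 0.01204).

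**Figure D3:**
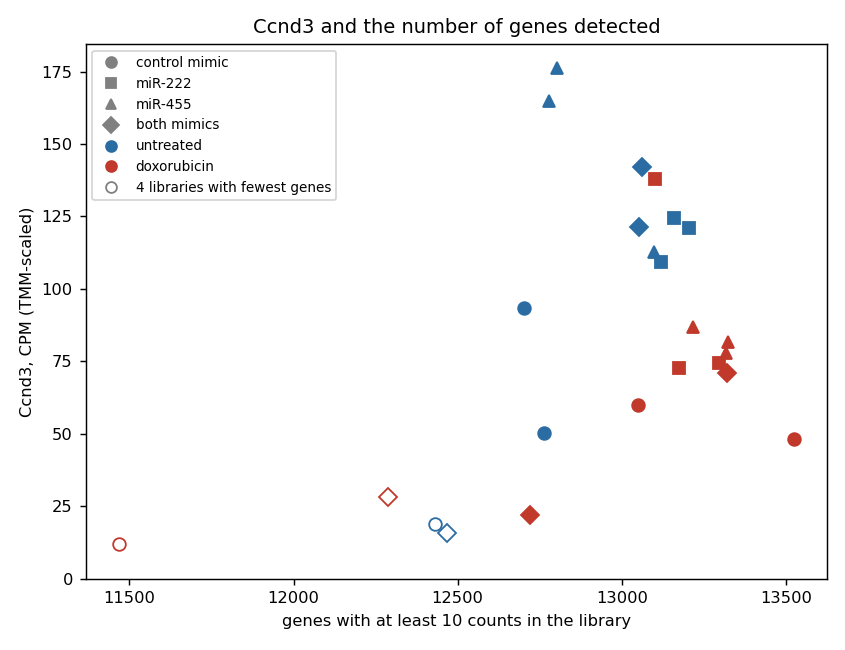
CPM of Ccnd3 (vertical axis) against the number of genes with at least 10 counts (horizontal axis) in the 24 libraries; the symbol gives the mimic and the colour the treatment, and open symbols are the 4 gene-poor libraries. Doxorubicin control mimic replicate 1, with 11469 genes, has the lowest Ccnd3 at 11.9 CPM.

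Cdk4, a kinase partner of the D-type cyclins, had 64.0 to 116 CPM in all 24 libraries. The doxorubicin control mimic group had 69.9, 64.0 and 68.1 CPM, all below the 83.1, 106 and 92.7 CPM of its untreated counterpart. That difference of -0.48 ± 0.20 missed the threshold (adjusted p 0.0737) and passed it with a filter of 1 CPM in 3 libraries (-0.53, adjusted p 0.04155), without untreated control mimic replicate 1 (-0.63, adjusted p 0.03914) and without the 4 gene-poor libraries (-0.66, adjusted p 0.02233). Under doxorubicin the libraries with both mimics, at 104, 78.4 and 116 CPM, lay above the control mimic ones (0.56 ± 0.20, adjusted p 0.0979), and without the 4 gene-poor libraries that comparison passed as well (0.75, adjusted p 0.03037).

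Cdk6, the other D-cyclin kinase, had 15.1, 12.3 and 14.9 CPM in untreated control mimic cells and 3.30, 3.76 and 4.40 CPM with both mimics. The groups were far apart, and the change was -1.88 ± 0.47 (adjusted p 0.0218). The call was lost without both mimics replicate 1 (-1.82, adjusted p 0.1028) or replicate 2 (-1.90, adjusted p 0.09035), and when only the 2 groups were fitted (adjusted p 0.1415) or the close libraries summed (adjusted p 0.2663). Untreated miR-222 libraries had 3.84, 4.27 and 7.12 CPM, also clear of the controls (-1.47 ± 0.47, adjusted p 0.0535), and miR-455 libraries 4.36, 8.92 and 5.53 CPM (-1.17 ± 0.46, adjusted p 0.128). DESeq2 called the miR-222 difference (-1.48, adjusted p 0.01229), and so did the edgeR fit without the 4 gene-poor libraries (-1.46, adjusted p 0.01801).

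With doxorubicin Cdk6 had 3.33, 11.6 and 11.9 CPM in control mimic cells, the low value being replicate 1, the library poorest in genes. Libraries with miR-222 had 5.67, 4.10 and 6.03 CPM, with miR-455 13.6, 9.67 and 10.6 CPM, and with both mimics 3.89, 4.48 and 1.11 CPM. None of the mimic comparisons passed (both mimics -1.50 ± 0.47, adjusted p 0.067), and without doxorubicin control mimic replicate 1 the one for both mimics did (-1.89, adjusted p 0.01299). Doxorubicin itself changed Cdk6 by -0.65 to 0.84 over the 4 mimic conditions, none of it past the threshold.

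Ccne1, cyclin E1, was between 1.12 and 11.9 CPM. Untreated control mimic libraries had 11.9, 10.4 and 5.40 CPM, and the other 7 groups lay between 1.12 and 7.06 CPM. All 4 doxorubicin changes were below 0 (-0.82 ± 0.48 in control mimic cells, adjusted p 0.222). The largest mimic change was -1.14 ± 0.48 for miR-455 in untreated cells (adjusted p 0.147). None passed in the fit of all 24 libraries. Without untreated miR-455 replicate 2 that miR-455 change was called (-1.73, adjusted p 0.03668). Under doxorubicin Ccne1 was called higher with miR-222 than with miR-455 without the 4 gene-poor libraries (1.12, adjusted p 0.04975). Fitting only those 2 groups gave the same call (1.15, adjusted p 0.005169).

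Ccne2, cyclin E2, had 51.8, 22.5 and 11.03 CPM in the 3 untreated control mimic libraries, a wide range within 1 group, and 8.38, 5.72 and 5.41 CPM with doxorubicin. The groups did not overlap, and the change was -2.13 ± 0.56 (adjusted p 0.00796). The size owed much to 1 library: without untreated control mimic replicate 1 it was -1.44 (adjusted p 0.06656), although without all 4 gene-poor libraries it was -1.67 (adjusted p 0.003256). Fitting only the 2 groups gave -2.16 (adjusted p 0.05548). With the mimics, doxorubicin changed Ccne2 by -0.59 ± 0.55 (miR-222), -1.19 ± 0.55 (miR-455) and -0.999 ± 0.55 (both mimics), none past the threshold; without the 4 gene-poor libraries the last 2 were called (-1.24, adjusted p 0.005634, and -1.07, adjusted p 0.04514).

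In untreated cells Ccne2 was lower with miR-222, at 6.26, 4.41 and 7.59 CPM, than with the control mimic (-2.22 ± 0.56, adjusted p 0.0184). The call was lost without untreated control mimic replicate 1 (-1.50, adjusted p 0.1353), without miR-222 replicate 1 (adjusted p 0.08092) or replicate 2 (adjusted p 0.09893), when only the 2 groups were fitted (adjusted p 0.06263) and with the close libraries summed (adjusted p 0.1977). The miR-455 libraries had 9.04, 10.6 and 8.16 CPM (-1.62 ± 0.55, adjusted p 0.0836). Those with both mimics had 8.38, 6.62 and 22.3 CPM (-1.20 ± 0.54, adjusted p 0.191), the high value being replicate 3; without that library the change was -1.95 (adjusted p 0.02641), and without the 4 gene-poor libraries -1.21 (adjusted p 0.02953).

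Rb1, the retinoblastoma gene itself, was at 12.6 to 49.5 CPM. Untreated control mimic libraries had 30.8, 15.6 and 13.9 CPM and doxorubicin ones 40.7, 22.1 and 23.0 CPM, so the groups overlapped (0.51 ± 0.34, adjusted p 0.286). The 3 untreated miR-455 libraries were the lowest, at 13.0, 12.6 and 13.0 CPM, and in both treatments of the control mimic replicate 1 was the highest. No comparison passed in the edgeR fit of all 24 libraries. With only the compared groups fitted, Rb1 passed for doxorubicin in miR-455 cells (0.63, adjusted p 0.01274) and for miR-222 against miR-455 in untreated cells (1.17, adjusted p 0.03821), and DESeq2 called the latter too (1.17, adjusted p 0.02754). Without the 4 gene-poor libraries, Rb1 was called higher in untreated cells with miR-222 (0.92, adjusted p 0.02401) and with both mimics (0.90, adjusted p 0.03043), and with doxorubicin in miR-455 cells (0.62, adjusted p 0.04706).

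Rbl1, which encodes p107, fell with doxorubicin in control mimic cells from 32.8, 18.8 and 8.62 CPM to 3.63, 3.81 and 2.92 CPM. Every untreated library was above every doxorubicin one. The change of -2.54 ± 0.48 (adjusted p 6.4e-04) was the largest of the 9 genes over the 10 comparisons of doxorubicin and of the mimics, and the call held in all 14 alternatives, from -2.95 to -2.06. In miR-222 cells Rbl1 went from 7.80, 6.06 and 8.93 CPM to 3.97, 3.12 and 2.80 CPM. These groups were also apart, but the change of -1.20 ± 0.46 missed the threshold (adjusted p 0.0911); without the 4 gene-poor libraries it was -1.24 (adjusted p 0.007514). With miR-455 the values were 3.72, 7.68 and 4.52 CPM untreated and 4.62, 3.74 and 3.21 CPM with doxorubicin, and with both mimics 7.60, 5.801 and 18.4 CPM and 5.43, 10.7 and 6.27 CPM. Those overlapped (-0.46 ± 0.46 and -0.50 ± 0.46, adjusted p 0.556 and 0.509).

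Among untreated cells Rbl1 was lower with miR-455 than with the control mimic (-1.92 ± 0.47, adjusted p 0.0288), with no overlap. The call was lost without control mimic replicate 1 (-1.41, adjusted p 0.1613) or replicate 2 (-1.98, adjusted p 0.0589), without miR-455 replicate 1 (adjusted p 0.1559) or replicate 3 (adjusted p 0.1581), when only the 2 groups were fitted (adjusted p 0.1387) and with the close libraries summed (adjusted p 0.4031). It held without the 4 gene-poor libraries (-1.40, adjusted p 0.01756). With miR-222 the change was -1.40 ± 0.46 (adjusted p 0.0598) and with both mimics -0.92 ± 0.46 (adjusted p 0.233); without the 4 gene-poor libraries the latter was -1.08 (adjusted p 0.05 when rounded, just under the threshold).

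**Figure D4:**
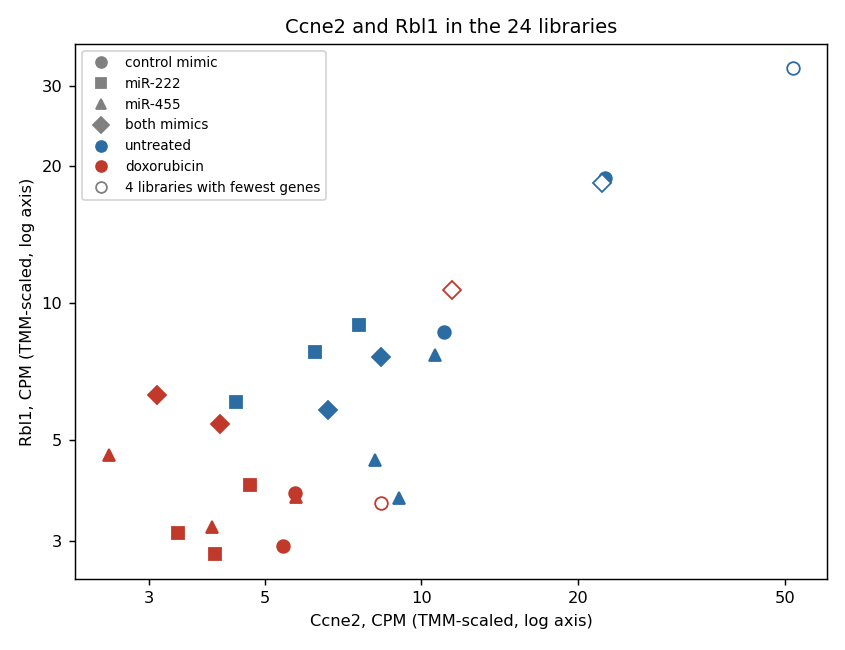
CPM of Rbl1 (vertical axis, log scale) against CPM of Ccne2 (horizontal axis, log scale) in the 24 libraries; the symbol gives the mimic and the colour the treatment, and open symbols are the 4 gene-poor libraries. Untreated control mimic replicate 1 stands highest on both axes, at 51.8 CPM of Ccne2 and 32.8 CPM of Rbl1.

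Ccne2 and Rbl1 ran together over the libraries, with Pearson's r of 0.825 for log2 CPM over 24 libraries, given as a description since the libraries share treatment groups and depth. The 3 untreated control mimic libraries ranked the same way for both genes. Untreated both mimics replicate 3 also stood above its group for both, at 22.3 and 18.4 CPM.

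Rbl1 is a textbook E2F target, and its promoter is shown with those of the replication genes Mcm2 and Mcm5. All 3 fell with doxorubicin in control mimic cells and held a match to the E2F motif. They are examples, since other replication genes fell as well. The E2F motif was searched as TTTCCCGC, TTTCGCGC, TTTGCCGC or TTTGGCGC on both strands, from 250 bases before to 50 after the RefSeq start (GRCr8); capitals mark the matches, which overlap where 2 face each other. The stretches are chr3:166289377-166289414 (minus strand) for Rbl1, chr4:122918095-122918128 (minus strand) for Mcm2 and chr19:13488693-13488812 (plus strand) for Mcm5, which holds 2 further matches upstream of the stretch shown.
Rbl1: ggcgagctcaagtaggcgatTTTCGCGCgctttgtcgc
Mcm2: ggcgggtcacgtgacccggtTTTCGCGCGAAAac
Mcm5: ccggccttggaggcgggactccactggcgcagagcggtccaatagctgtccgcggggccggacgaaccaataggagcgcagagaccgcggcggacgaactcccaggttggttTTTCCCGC

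The Rbl1 match began 18 bases before the start (position -18), and Rb1 had a match at position 2. Of the 9 genes, 5 were matched to a promoter in the table, and 2 of these 5 (40%) held the motif; Ccnd3, Cdk4 and Ccne1 held none of these letters in the window. It was found in 7 of 11 replication genes (63.6%) and in 716 of 33469 promoters overall (2.14%). Mybl2, a replication-list gene that fell with doxorubicin in every mimic condition, held no match. Any link between the motif and the changes with doxorubicin was not tested. A match is a description of letters in this window and no evidence of binding.

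The CDK inhibitors, which oppose the cyclin kinases, were measured through 6 genes. With doxorubicin in control mimic cells 2 rose and 1 fell, where 15.2% of all genes were called higher and 12.3% lower. Cdkn1a, the p53 target p21, had 46.5, 61.9 and 146 CPM untreated and 288, 634 and 613 CPM with doxorubicin (2.59 ± 0.61, adjusted p 0.00345). Cdkn1c, p57, rose by 3.60 ± 0.47 (adjusted p 1.5e-05); both calls held in all 14 alternatives. Cdkn1b, p27, had 35.3, 32.7 and 28.7 CPM untreated and 9.39, 18.0 and 19.8 CPM with doxorubicin (-1.03 ± 0.33, adjusted p 0.0258). That call for p27 was lost without untreated control mimic replicate 1 or 2, without doxorubicin control mimic replicate 1 and without the 4 gene-poor libraries (adjusted p at most 0.1007). Doxorubicin also lowered p27 in miR-222 cells (-1.51 ± 0.34, adjusted p 0.00443) and in miR-455 cells (-1.26 ± 0.33, adjusted p 0.0117). The miR-455 call was lost without replicate 3 of either miR-455 group (adjusted p 0.05174 and 0.06647). In cells given both mimics its doxorubicin change was -0.95 ± 0.33 (adjusted p 0.0577). Against the control mimic, p27 was called for no mimic in either treatment in the edgeR fit of all libraries. Untreated cells differed by 0.12 (miR-222, adjusted p 0.842), 0.97 (miR-455, adjusted p 0.0836) and -0.08 (both mimics). Under doxorubicin these differences were -0.36, 0.74 and 4.6e-05 in the same order.

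In the 3 mimic conditions doxorubicin did not raise Cdkn1a past the threshold (0.41 ± 0.57, 0.65 ± 0.58 and -0.24 ± 0.57). Untreated mimic libraries lay above all untreated control mimic libraries, except miR-455 replicate 2 and both mimics replicate 3. Any link of these levels to the doxorubicin change was not tested. Untreated miR-222 libraries had 551, 547 and 390.0 CPM of Cdkn1a (2.55 ± 0.61 against the control mimic, adjusted p 0.0142), and those with both mimics 557, 630 and 118 CPM (2.36 ± 0.60, adjusted p 0.0236); with miR-455 they had 449.5, 112 and 385 CPM (1.90 ± 0.59, adjusted p 0.0655). Both Cdkn1a calls were lost without untreated control mimic replicate 1 or 2, without mimic replicate 1 or 2, and with the close libraries summed (adjusted p at most 0.1702 for miR-222 and 0.2837 for both). The Cdkn1a effect of doxorubicin in mimic cells minus that in control mimic cells did not pass either (-2.19 ± 0.82, -1.94 ± 0.82 and -2.83 ± 0.83, adjusted p 0.371, 0.424 and 0.152), although for both mimics it did in DESeq2 (adjusted p 0.02916), without untreated both mimics replicate 3 (-3.21, adjusted p 0.02683) and without the 4 gene-poor libraries (-2.85, adjusted p 0.02324). Cdkn1c rose in untreated cells with miR-222 (2.51 ± 0.45, adjusted p 0.00228), with miR-455 (1.58 ± 0.44, adjusted p 0.0446, called in 6 of 14 alternatives) and with both mimics (2.65 ± 0.45, adjusted p 0.0021). With doxorubicin Cdkn1c changed by 0.66 ± 0.42, 1.12 ± 0.43 and 0.83 ± 0.42 in the 3 mimic conditions, none past the threshold. These changes minus that in control mimic cells were -2.94 ± 0.61, -2.48 ± 0.61 and -2.77 ± 0.61 (adjusted p 0.0833, 0.177 and 0.0764). Of the 6 inhibitors 0 passed for this difference in edgeR; DESeq2 called 1, 1 and 2, and without the 4 gene-poor libraries 1, 0 and 3 were called. In untreated cells Cdkn2a, the p16 and p19ARF locus, was lower with both mimics than with the control mimic (-2.25 ± 0.67, adjusted p 0.0475). Cdkn2b, p15, rose with doxorubicin in miR-222 cells (3.00 ± 0.93, adjusted p 0.0336). These 2 kept their call in 5 and 9 of 14 alternatives.

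Under doxorubicin none of the 6 inhibitors was called for any mimic. Unadjusted p was under 0.05 for 0, 2 and 1 of them (miR-222, miR-455, both mimics), DESeq2 called 0, 0 and 1, and without the 4 gene-poor libraries 0, 0 and 2 were called. Doxorubicin with both mimics called 0 as well, with 3 at an unadjusted p under 0.05 and 2 called by DESeq2; without the 4 gene-poor libraries 3 were called there, 5 with miR-455 and 4 with miR-222, against 1 and 2 with all libraries.

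Of the 10 other E2F, DP and pocket genes, 3 fell with doxorubicin in control mimic cells: the repressor E2f6 (-1.12 ± 0.33, adjusted p 0.0146), the atypical repressor E2f8 (-2.32 ± 0.72, adjusted p 0.0211) and the activator E2f3 (-1.07 ± 0.39, adjusted p 0.047). Their median was -0.76, against 0.02 over all genes, of which 12.3% were called lower. These 3 calls were lost without untreated control mimic replicate 1, or without doxorubicin replicate 2 or 3. E2f6 and E2f8 fell also in miR-222 cells (-1.86 ± 0.33 and -2.79 ± 0.75), in miR-455 cells (-1.87 ± 0.33 and -2.42 ± 0.74) and with both mimics (-1.84 ± 0.33 and -3.09 ± 0.76). In miR-455 cells E2f3 (-1.20 ± 0.39, adjusted p 0.0377) and the DP partner Tfdp2 (-1.16 ± 0.40, adjusted p 0.049) fell as well.

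E2f6 was lower with each mimic under doxorubicin. Control mimic libraries had 100.2, 38.0 and 48.3 CPM, miR-222 libraries 13.0, 16.6 and 12.3 CPM (-2.15 ± 0.34, adjusted p 6.46e-04), miR-455 libraries 25.6, 23.8 and 25.0 CPM (-1.32 ± 0.33, adjusted p 0.033) and libraries with both mimics 16.3, 26.5 and 19.7 CPM (-1.57 ± 0.33, adjusted p 0.0061). No mimic group overlapped the control mimic libraries, whose highest value was in the library poorest in genes; the miR-455 call was lost without that library or without any 1 of the miR-455 libraries. In untreated cells E2f6 (-1.41 ± 0.33, adjusted p 0.0125) and E2f4 (-0.90 ± 0.26, adjusted p 0.0376) fell with miR-222, and E2f4 with both mimics (-0.91 ± 0.26, adjusted p 0.0415). That E2f6 call was lost without untreated miR-222 replicate 1 or 2 or control mimic replicate 1 (adjusted p 0.05136 to 0.07047), and the E2f4 calls held in 6 and 5 of 14 alternatives. With miR-455 in untreated cells 0 of the 10 were called, with 3 at an unadjusted p under 0.05 and 1 called by DESeq2.

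In the CDK2 axis, 2 of 6 genes fell with doxorubicin in control mimic cells, and 2, 3 and 2 in cells with miR-222, miR-455 and both mimics. Without the 4 gene-poor libraries 4, 4, 4 and 3 of the 6 were called, in the same order and in either direction. Of all genes, 12.3% were called lower with the control mimic, and 6.87%, 9.11% and 7.24% in the mimic conditions, with all libraries. Ccna2, cyclin A2 of S and G2 phase, had 48.8, 48.5 and 35.9 CPM in untreated control mimic cells and 0, 3.25 and 2.99 CPM with doxorubicin. Its change was -4.36 ± 0.70 (adjusted p 1.3e-04) there and -4.00 ± 0.70, -3.65 ± 0.68 and -3.77 ± 0.68 in the mimic conditions. The phosphatase Cdc25a, which activates CDK2, fell by 0.57 ± 0.18 in miR-222 cells, 0.98 ± 0.19 in miR-455 cells and 0.65 ± 0.19 where both mimics were given (calls held in 4, 13 and 9 of 14 alternatives). Mnat1, the assembly factor of the CDK-activating kinase, fell in control mimic (-1.25 ± 0.37) and miR-455 cells (-1.18 ± 0.37). Against the control mimic, 1 of the 6 was called for any mimic: Cdc25a with miR-455 under doxorubicin (-0.95 ± 0.19, adjusted p 0.00646), a call lost without miR-455 replicate 2 (adjusted p 0.05617). In the other 5 mimic comparisons 0 were called, with at most 1 at an unadjusted p under 0.05 and 0 called by DESeq2; without the 4 gene-poor libraries 1, 1 and 0 were called for miR-222, miR-455 and both mimics untreated, and 1, 1 and 2 under doxorubicin.

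Of the 10 genes that control the degradation of G1 cyclins and inhibitors, 1 or 2 were called for doxorubicin in each mimic condition, and 3 to 6 without the 4 gene-poor libraries. With all libraries, 15.2% of all genes were called higher and 12.3% lower with the control mimic. With the mimics, 6.87% to 9.11% were called in each direction. Usp2, a deubiquitinase known to stabilise cyclin D1, fell by 2.51 ± 0.50 with doxorubicin in control mimic cells (22.2, 23.0 and 20.3 CPM untreated, 2.93, 3.09 and 5.41 CPM with doxorubicin, adjusted p 8.87e-04). It fell by 3.78 ± 0.52, 4.31 ± 0.54 and 4.16 ± 0.53 in cells with miR-222, miR-455 and both mimics. Ccnd1 RNA rose in the same comparisons, and the cyclin D1 protein was not measured. Skp1, a core subunit of SCF ubiquitin ligases, rose with doxorubicin in miR-222 cells (1.07 ± 0.36, adjusted p 0.0482). It also rose with doxorubicin in cells with both mimics (1.40 ± 0.36, adjusted p 0.012). These 2 calls held in 5 and 10 of 14 alternatives. Cks1b, the cofactor that presents p27 to SKP2, was lower with miR-222 than with the control mimic in both treatments (-0.98 ± 0.26 untreated, adjusted p 0.023; -1.07 ± 0.26 under doxorubicin, adjusted p 0.0198), and lower than with miR-455 under doxorubicin (-1.21 ± 0.26, adjusted p 0.00917). Cks1b values under doxorubicin were 79.4, 58.6 and 35.02 CPM with the control mimic and 22.8, 31.2 and 28.0 CPM with miR-222; each of the 2 calls against the control mimic held in 8 of 14 alternatives and was lost without control mimic replicate 1 or 2. Fbxo4, an F-box protein of cyclin D1, rose with both mimics under doxorubicin (1.41 ± 0.34, adjusted p 0.0155), and that call was lost without doxorubicin both mimics replicate 2 and without control mimic replicate 2.

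Of 15 replication genes under E2F control, 9 fell and 0 rose with doxorubicin in control mimic cells (median -1.18, against 0.02 over all genes). Of all genes, 12.3% were called lower and 15.2% higher there. Mcm2, a subunit of the replicative helicase, had 48.4, 52.8 and 36.3 CPM untreated and 14.5, 14.8 and 17.7 CPM with doxorubicin (-1.55 ± 0.25, adjusted p 1.55e-04). Mcm5 of the same complex had 25.9, 37.0 and 23.4 CPM and 2.83, 3.76 and 4.91 CPM (-2.90 ± 0.50, adjusted p 2.57e-04). Neither gene overlapped between the groups, and both calls held in all 14 alternatives. Mybl2, a transcription factor of dividing cells (-1.87 ± 0.39), and Mcm3 (-2.06 ± 0.50) kept theirs in 13. The count of 9 was 7 without the 4 gene-poor libraries, 3 when only the 2 groups were fitted and 4 to 10 when 1 library was left out.

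With the mimics fewer of the 15 were called for doxorubicin, and fewer of all genes as well. With miR-222, miR-455 and both mimics, 7.76%, 9.02% and 7.85% of all genes were called higher, against 15.2% with the control mimic. Called lower were 6.87%, 9.11% and 7.24%, against 12.3%. Mcm5 (-2.04 ± 0.48) and Mybl2 (-1.28 ± 0.38) fell with doxorubicin in miR-222 cells. In miR-455 cells both fell (-1.77 ± 0.48 and -1.49 ± 0.38) while Tyms, the thymidylate synthase, rose (1.02 ± 0.23, adjusted p 0.00393). In cells with both mimics Mcm5 (-3.15 ± 0.51) and Mybl2 (-1.64 ± 0.39) fell with doxorubicin. Tyms rose there (0.81 ± 0.23, adjusted p 0.0194). The difference between these effects and the one in control mimic cells called none of the 15 genes, with 2, 2 and 3 of them at an unadjusted p under 0.05 and 0 called by DESeq2 in each. Without the 4 gene-poor libraries, doxorubicin called 5, 6 and 5 of the 15 with miR-222, miR-455 and both mimics, against 2, 4 and 3 with all libraries.

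Untreated cells had lower replication genes with the mimics: 4, 2 and 2 of 15 (miR-222, miR-455, both mimics), and none higher. Of all genes, 4.47%, 2.25% and 3.39% were called lower in these comparisons. Mcm4 fell in all 3 (-1.49 ± 0.38, -1.79 ± 0.38 and -1.38 ± 0.38, adjusted p 0.0192, 0.0162 and 0.0326). Mcm2 fell with miR-222 (-0.83 ± 0.25) and both mimics (-1.05 ± 0.25), Mcm3 (-1.65 ± 0.49) and the ribonucleotide reductase subunit Rrm1 (-1.02 ± 0.23) with miR-222, and Tyms with miR-455 (-0.94 ± 0.23). The 3 comparisons share their control mimic libraries. Leaving out untreated control mimic replicate 1 ended the Mcm4 call in each of them, and leaving out 1 library at a time moved the counts between 0 and 7 with miR-222, 0 and 8 with miR-455 and 0 and 6 with both. Without the 4 gene-poor libraries the counts were 6, 7 and 7. Under doxorubicin 0 of the 15 were called for any mimic, with 2, 3 and 2 at an unadjusted p under 0.05 and 0 called by DESeq2 in each.

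Whether the mimics altered the response to doxorubicin was asked by subtracting its effect in control mimic cells from that in mimic cells. None of the 9 G1 genes passed with miR-222, miR-455 or both mimics, where 0.0489%, 0% and 0.0559% of all genes did. For Ccnd1 the differences were -0.19 ± 0.32, 0.39 ± 0.32 and -0.50 ± 0.32 (adjusted p 0.9, 0.663 and 0.501). Rbl1 showed the widest ones, 1.33 ± 0.65, 2.08 ± 0.66 and 2.03 ± 0.65 (adjusted p 0.526, 0.32 and 0.194). An unadjusted p under 0.05 was found for 2, 2 and 3 of the 9, and DESeq2 called 0 in each. Without the 4 gene-poor libraries Cdk4 (1.16, adjusted p 0.02903) and Rbl1 (1.89, adjusted p 0.04237) passed for both mimics; without untreated both mimics replicate 3 alone Rbl1 did (2.76, adjusted p 0.024).

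The series text asks about joint action of the mimics, so the effect of both was set against the sum of the single effects. None of the 9 genes passed in untreated cells (0.014% of all genes) or under doxorubicin (0.0419%), with 2 of 9 at an unadjusted p under 0.05 in each. For Ccnd1 the excess was -0.03 ± 0.32 in untreated cells and -0.73 ± 0.32 under doxorubicin (adjusted p 0.971 and 0.406). Ccne2 (2.64 ± 0.77) and Rbl1 (2.40 ± 0.65) had the largest excess in untreated cells (adjusted p 0.21 for both), and DESeq2 called these 2 there (adjusted p 0.04315 and 0.02902) and 0 under doxorubicin.

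The genes outside all lists whose log2 CPM ran most like each member's over the 24 libraries were taken as a description. For Ccnd1 they were Dusp6, a phosphatase of ERK signalling (r = 0.945), the atypical chemokine receptor Ackr4 (0.939) and the serine protease Htra1 (0.938). Ccnd2 was closest to Arl2bp (0.872), Zdbf2 (0.859) and Piwil2 (0.844), and Ccnd3 to Gcn1 (0.97) and Slc39a7 (0.967). Cdk4 ran with Myo7a (0.908), Aldh1l2 (0.85) and Sel1l (0.795), and Cdk6 with Il18rap (0.841), Prkacb (0.831) and Kank4 (0.805). For Ccne1 they were Asb3 (0.828), Ergic1 (0.816) and Ngly1 (0.797), and for Rb1 Brdt (0.872), Abcc9 (0.871) and Phtf1 (0.87). Ccne2 was closest to the histone chaperone Nasp (0.923), the actin nucleator subunit Actr3 (0.921) and Acsl3 (0.911), and Rbl1 to Akap11 (0.94), the DNA polymerase alpha subunit Pola1 (0.934) and Acsl3 (0.929). All 24 points share treatment groups and library quality, and the high values for Ccnd3 include the spread of that gene in the 4 gene-poor libraries.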

How the data were processed

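PolyA RNA of 24 libraries was quantified by the authors, who deposited expected counts per gene symbol; the submitters' processing notes name Salmon, DESeq2 and the build Rnor_6.0, with versions and roles not given in the sources used here. Of the values 7.35% were not whole and were rounded. In R 4.3.3, edgeR 4.0.16 kept 14303 genes by filterByExpr, scaled libraries by TMM and fitted the 8 group means to all libraries; contrasts were tested by its quasi-likelihood F test, with Benjamini-Hochberg adjustment over all tested genes in each comparison and calls at an adjusted p under 0.05. The SE is the size of the log2 fold change divided by the square root of F. CPM uses TMM library sizes, and log2 CPM a prior count of 2. The fit was tested on simulated data. Libraries held 17311949 to 25750309 counts.

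There were 15 comparisons, and 4 more between mimics were added after the values had been seen. Members and gene lists were chosen with earlier results of these data known. All members were named, with Cdkn1a and Cdkn1b always, up to 4 called genes of smallest p per list and comparison, and the 3 genes most correlated with each member; some genes that this rule names are not reported here. Replicate numbers were not used to pair the samples, since the labels do not say whether they do. In 0 of 10 comparisons did the deviations of all same-numbered libraries correlate above 0.1. With 3 libraries per group this rule cannot exclude pairing. Alternatives were DESeq2 1.42.0, its size factors, 2 filters, a replicate block, a fit of only the compared groups and leaving out each library; summing close libraries and leaving out the 4 with the fewest genes were added after seeing the data. Sequences came from RefSeq (GRCr8).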

Additional observations from a re-analysis of the deposited data

How the results depend on the processing

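DESeq2 size factors and a filter of 1 CPM in 3 libraries left every count of called G1 genes within 1.5 times its value, and no alternative reversed a called change. Over all alternatives 231 of these counts stayed within that range and 65 moved; of the fold changes 2559 kept their side of the threshold, 52 called ones lost it and 53 gained it. Leaving the filter out moved doxorubicin with miR-455 from 2 called genes to 1. The DESeq2 test moved miR-222 untreated to 4, miR-455 untreated to 3, miR-455 under doxorubicin to 1, both mimics under doxorubicin to 4, both mimics beyond the sum untreated to 2 and miR-222 against miR-455 untreated to 2.

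Fitting only the compared groups gave 2 for doxorubicin with the control mimic, 2 for miR-222 cells, 5 for miR-455 cells and 0 where both were given; 1, 0 and 0 for miR-222, miR-455 and both mimics untreated; 0 and 0 for miR-222 and both mimics under doxorubicin; and 2 and 3 for miR-222 against miR-455 untreated and under doxorubicin. Without the 4 gene-poor libraries the counts were 2, 5 and 3 for doxorubicin with miR-222, miR-455 and both mimics, 4, 2 and 5 for the 3 untreated mimic comparisons, 4 for both mimics under doxorubicin, 2 for the doxorubicin effect with both mimics minus that with the control mimic, and 2 and 2 for miR-222 against miR-455. With close libraries summed they were 0 for doxorubicin with miR-222, miR-455 or both mimics, 0 for each mimic untreated, 0 for miR-222 and 1 for both mimics under doxorubicin, and 0 for miR-222 against miR-455 under doxorubicin; summing leaves doxorubicin miR-455 with 1 sample, assumed to vary like the others.

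Leaving out 1 library at a time gave 4 to 4 called genes for doxorubicin with the control mimic, 1 to 1 for miR-222 cells, 1 to 1 for miR-455 cells and 0 to 2 where both were given; 0 to 3, 0 to 2 and 1 to 4 for miR-222, miR-455 and both mimics untreated; 1 to 2, 0 to 1 and 2 to 3 under doxorubicin; and 0 to 1 for the doxorubicin effect with both mimics minus that with the control mimic. The control mimic count of 4 did not always hold the same genes. Without untreated control mimic replicate 1, Ccne2 lost its doxorubicin call (adjusted p 0.06656) and Cdk4 gained one (-0.63, adjusted p 0.03914). Same-numbered libraries correlated above 0.1 in 6 of 30 pairs (from -0.581 to 0.453). The replicate block moved 1 count, miR-455 untreated, from 1 to 0 (Rbl1 -1.90, adjusted p 0.05003). The causes were not tested. For genes of the other lists, 291 of the called changes' alternatives missed the threshold. Ccne1, Ccne2, Cdk6 and Rbl1 lay below 10 CPM in many libraries, which limits the precision of their values.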
